A study of Homo sapiens with 6 samples.

Results

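H3K9me3 peaks of BJ cells were compared between 2 guide RNAs, with 1 list from cells carrying PURPL guide 1 (labelled sgRNA-PURPL#1) and 1 from cells carrying PURPL guide 2 (sgRNA-PURPL#2), to see what the guides share and where they differ. The members are the peaks on chromosomes 1 to 22: 13980 of guide 1 and 11582 of guide 2, 25562 of the 50558 peaks in the 3 lists of the series. Peaks of the 2 lists were called shared when they overlapped by at least 1 bp. The list of the control guide was counted in that total and not used further.

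BJ is an established line of human skin fibroblasts. Both groups were made by CRISPR interference (CRISPRi): a catalytically dead Cas9, often fused to a repressor domain, is led to a gene by a guide RNA. Both guides were directed at PURPL, a long non-coding RNA gene that p53 induces. Cells were fixed with 1% formaldehyde for 10 min. Each line gave 1 H3K9me3 library and 1 input library, and each list is named as set against the input of the same line, so no difference below has a replicate check and none carries a test. Whether each line was 1 clone or a pool, how far each guide lowered PURPL and how deeply each library was sequenced is not stated in the labels. Single peaks are named after guides that the labels do not mention. Each list was therefore tied to its guide by the name of the list itself, which matches the labels.

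H3K9me3, trimethylation of lysine 9 on histone H3, marks heterochromatin and is bound by HP1 proteins. SUV39H1 and SUV39H2 are known to place it on satellite repeats around centromeres. SETDB1, brought by TRIM28 and by KRAB zinc finger proteins, places it on transposable elements and on the zinc finger genes themselves, mainly over their 3′ parts. In fibroblasts the blocks around centromeres are stable silent regions, while the promoters of active genes generally lack the mark. Peaks measure no transcript, so they do not tell whether a marked gene is silent.

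The guides shared most of their peaks in gene-free stretches around centromeres and fewer elsewhere. Of the guide 1 peaks, 7720 (55.2%, 95% Wilson interval 54.4 to 56.0) overlapped a guide 2 peak. Of the guide 2 peaks, 8023 (69.3%, 68.4 to 70.1) overlapped a guide 1 peak. The guide 1 list is also the longer one: it covered 16.9 Mb and the guide 2 list 12.97 Mb, 76.8% of that length. By length, 7.63 Mb lay under peaks of both guides, which is 45.2% of the guide 1 length and 58.9% of the guide 2 length. When guide 1 was limited to its highest-scoring peaks, as many as guide 2 has, the shares of peaks were 60.8% and 64.3%. The intervals cover counting error only.

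Gene starts show the contrast on single genes, because almost none lay under a peak. In a RefSeq table of windows from 250 bp before to 50 bp after a gene start (GRCh38.p14), 18 of 21156 coding windows held a guide 1 peak (0.0851%) and 10 held a guide 2 peak (0.0473%). The 21 windows with a peak fell into 7 with both guides, 11 with guide 1 alone and 3 with guide 2 alone. Of the 7 with both guides, 6 belong to TAF11L genes, a tandem array of TAF11-like genes on chromosome 5, and the other one to ZNF274, whose protein recruits SETDB1 to zinc finger genes. ZNF540 was covered by guide 1 alone, and LPXN, the gene of the adaptor protein leupaxin, by guide 2 alone. The 250 bases before the start of 1 gene of each kind are given below 5′ to 3′ on the gene's strand, with CG dinucleotides, the sites of DNA methylation, in capitals.
TAF11L3, chr5:17518117-17518366, plus strand, both guides: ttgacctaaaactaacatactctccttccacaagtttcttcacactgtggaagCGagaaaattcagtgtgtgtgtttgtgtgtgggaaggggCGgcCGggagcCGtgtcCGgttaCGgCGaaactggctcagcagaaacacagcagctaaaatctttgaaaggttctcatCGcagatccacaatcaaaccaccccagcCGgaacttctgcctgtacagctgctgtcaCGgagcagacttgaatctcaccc
ZNF274, chr19:58182811-58183060, plus strand, both guides: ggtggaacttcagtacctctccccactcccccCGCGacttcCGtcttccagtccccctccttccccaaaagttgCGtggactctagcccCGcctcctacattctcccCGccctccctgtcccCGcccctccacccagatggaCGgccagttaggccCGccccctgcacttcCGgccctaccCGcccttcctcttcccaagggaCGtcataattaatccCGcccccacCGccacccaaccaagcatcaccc
ZNF540, chr19:37551124-37551373, plus strand, guide 1 alone: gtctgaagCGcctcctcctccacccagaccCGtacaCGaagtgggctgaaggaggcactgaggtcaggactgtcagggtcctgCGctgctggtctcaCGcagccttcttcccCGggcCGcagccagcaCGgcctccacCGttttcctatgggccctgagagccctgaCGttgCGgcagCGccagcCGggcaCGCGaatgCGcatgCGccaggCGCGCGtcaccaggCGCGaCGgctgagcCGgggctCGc
LPXN, chr11:58578134-58578383, minus strand, guide 2 alone: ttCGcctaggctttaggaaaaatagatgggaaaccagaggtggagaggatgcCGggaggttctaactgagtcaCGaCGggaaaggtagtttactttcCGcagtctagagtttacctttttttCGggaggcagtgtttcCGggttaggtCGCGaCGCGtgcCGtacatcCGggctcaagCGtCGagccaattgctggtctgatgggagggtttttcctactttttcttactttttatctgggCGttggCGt

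These stretches hold 10, 14, 25 and 17 CG dinucleotides in the order given. The letters CG, which read the same on both strands, were present in 93.9% of the 250-base stretches before the 33725 starts of all gene kinds in the table, with a median of 11 per stretch. TAF11L3 and ZNF540 stand on either side of that median, and the windows of both were under guide 1 peaks. ZNF274 had 193 and 108 of its 300 window bases under guide 1 and guide 2 peaks, and the other 3 windows were covered in full by each guide named.

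The TAF11L array was covered alike by both guides. Its 13 annotated genes lie from 17498231 to 17635053 on chromosome 5. TAF11L3 to TAF11L10 all held guide 1 peaks and all but TAF11L8 held guide 2 peaks, while TAF11L2 and TAF11L11 to TAF11L14 held neither. The array carried 8 peaks over 22.8 kb with guide 1 and 8 peaks over 18.7 kb with guide 2, and 7 and 8 of these peaks were shared. The 250 bases before TAF11L4 to TAF11L8 and TAF11L10 have 0 mismatches to the TAF11L3 sequence above, and TAF11L9 has 1. TAF11L7 has the same 250 bases as TAF11L3, and its start window was under peaks over 300 bp with guide 1 and 0 with guide 2. Reads of such copies cannot be told apart in this stretch, so which copy a peak sits on is uncertain. The array was chosen after its values were seen.

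The guides were more alike inside long gene-free stretches than outside them. Gene-free stretches were taken as the 29 gaps of 1 Mb or more between annotated genes that neighbour each other, and most of their peaks lie in those that hold centromeres. They held 9923 guide 1 peaks (71.0% of that list, Wilson interval 70.2 to 71.7) and 9492 guide 2 peaks (82.0%, 81.2 to 82.6). Inside them the lists were close in size, at 12.9 and 11.3 Mb, so guide 2 had 87.7% of the guide 1 length. Outside them the lists held 4057 and 2090 peaks over 3.97 and 1.63 Mb, and guide 2 had 41.1% of the guide 1 length. Inside the stretches the shared part was 70.1% with guide 1 and 75.4% with guide 2. Outside, the shares were 18.9% (17.8 to 20.2) and 41.5% (39.4 to 43.7). Peaks lie closer together inside the stretches, which by itself raises overlap, and how far it does so was not tested. With guide 1 limited outside the stretches to its 2090 highest-scoring peaks, an alternative added after the data were seen, the shares there were 27.4% and 32.8%, and guide 2 had 62.9% of the guide 1 length.

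Each chromosome showed the same order outside the stretches, and all but chromosome 18 inside them. Outside, guide 2 covered less than guide 1 on 22 of 22 chromosomes, from 25.5% of the guide 1 length on chromosome 13 to 59.2% on chromosome 4, with a median of 38.8%. Inside, the share ran from 77.1% on chromosome 19 to 112.8% on chromosome 18, with a median of 86.4%. On chromosome 18 guide 1 had 637 peaks over 540 kb in its stretch and guide 2 had 721 over 609 kb. Chromosome 12 was nearly equal, at 168 and 167 kb. Guide 2 had more peaks than guide 1 inside the stretches on 5 chromosomes. Reads of satellite repeats may be placed on more than 1 chromosome, which was not tested, so the 22 chromosomes may not be separate observations.

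**Figure D1:**
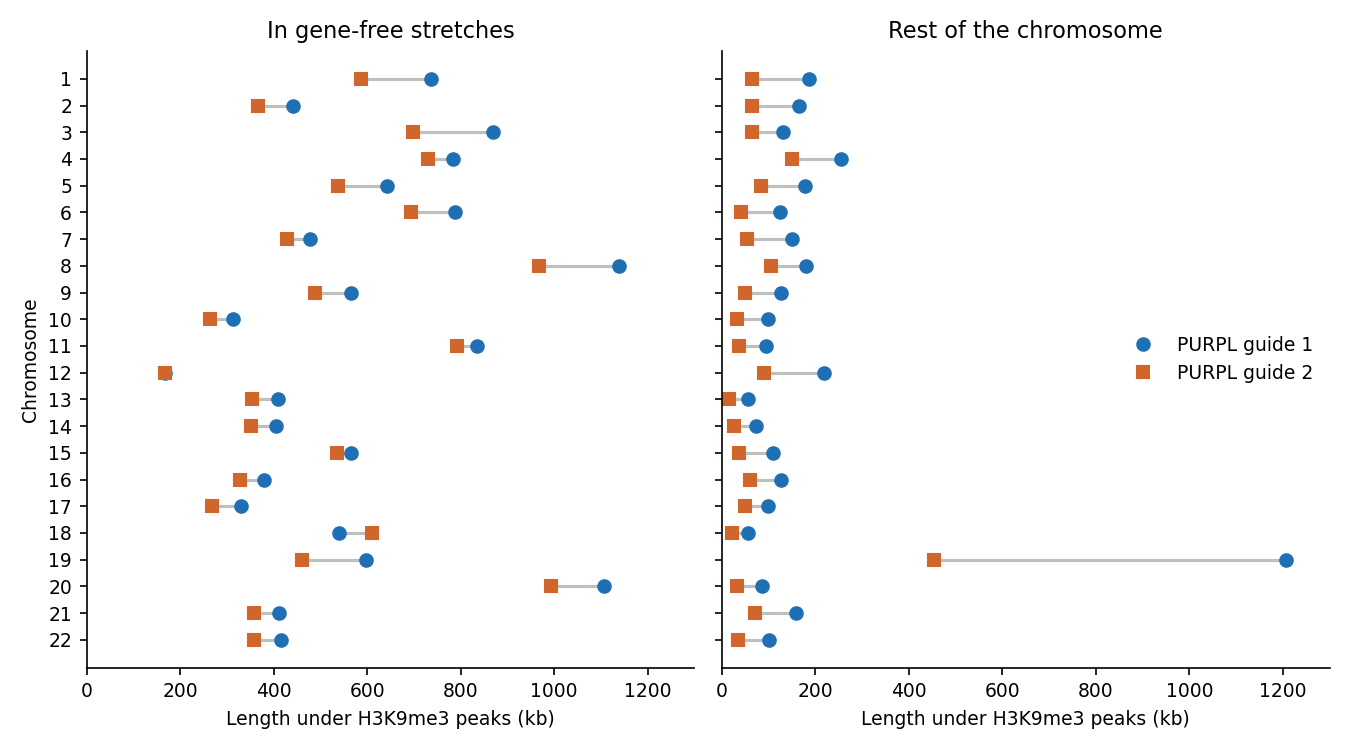
Length under H3K9me3 peaks in kb (horizontal) on each of the 22 chromosomes (vertical), with guide 1 as circles and guide 2 as squares, inside gene-free stretches (left) and on the rest of the chromosome (right); each point is 1 library. Guide 2 lies to the right of guide 1 on chromosome 18 in the left panel, and chromosome 19 stands apart on the right with 1206 kb against 453 kb.

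Similar length did not mean the same bases. On chromosome 12, where the stretch lengths were nearly equal, guide 1 had 36.2% and guide 2 34.8% of its peaks shared, the lowest shares of the 22 chromosomes. Chromosome 6 had the highest, 93.7% and 93.5%. Chromosome 18, the one with more guide 2 length, had 52.3% and 46.9%. Peak width moved with these shares: the mean width of guide 1 peaks in the stretch was 788 bp on chromosome 12, 848 bp on chromosome 18 and 2763 bp on chromosome 6. Chromosomes 8 and 20, with mean widths of 2837 and 2382 bp, had 91.3% and 88.8% of their guide 1 peaks shared. The part of width in these shares was not tested.

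Over bins of 1 Mb the 2 lists had close lengths in gene-free stretches and less alike ones elsewhere. Across the 94 bins that touch a stretch and hold a peak, Spearman's rho between the guide 1 and guide 2 lengths was 0.99, and 92 bins held peaks of both. Across the 1654 other bins with a peak, Pearson's r was 0.93 and rho 0.14. Of these, 628 held peaks of both guides, 777 of guide 1 alone and 249 of guide 2 alone. The bins share 2 libraries, bins with no peak were left out, and neighbouring bins are not independent, so these values are descriptions. The largest differences in favour of guide 2 lay in stretches, with 111 and 142 kb at 16000001 to 17000000 on chromosome 18 and 125 and 142 kb in the bin after it.

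Shared peaks had higher scores and were wider than the rest. The score is the authors' value per peak, on a scale that is not named, and it was used to rank peaks within a list. In the lowest decile of score 26.1% of the guide 1 peaks were shared and in the highest 87.1%. The corresponding guide 2 values were 51.8% and 93.3%. The increase was also present within each place: outside the stretches the shared part of the guide 1 peaks was 7.19% in the lowest quartile and 37.6% in the highest, and that of the guide 2 peaks 32.9% and 52.6%. Median width was 1143 bp for shared and 533 bp for unshared guide 1 peaks, and 1004 and 434 bp for guide 2. Of the peaks of at least 5000 bp, 304 of 310 with guide 1 and 177 of 177 with guide 2 were shared. A wide peak has more bases that another can overlap, so width and sharing are not independent.

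**Figure D2:**
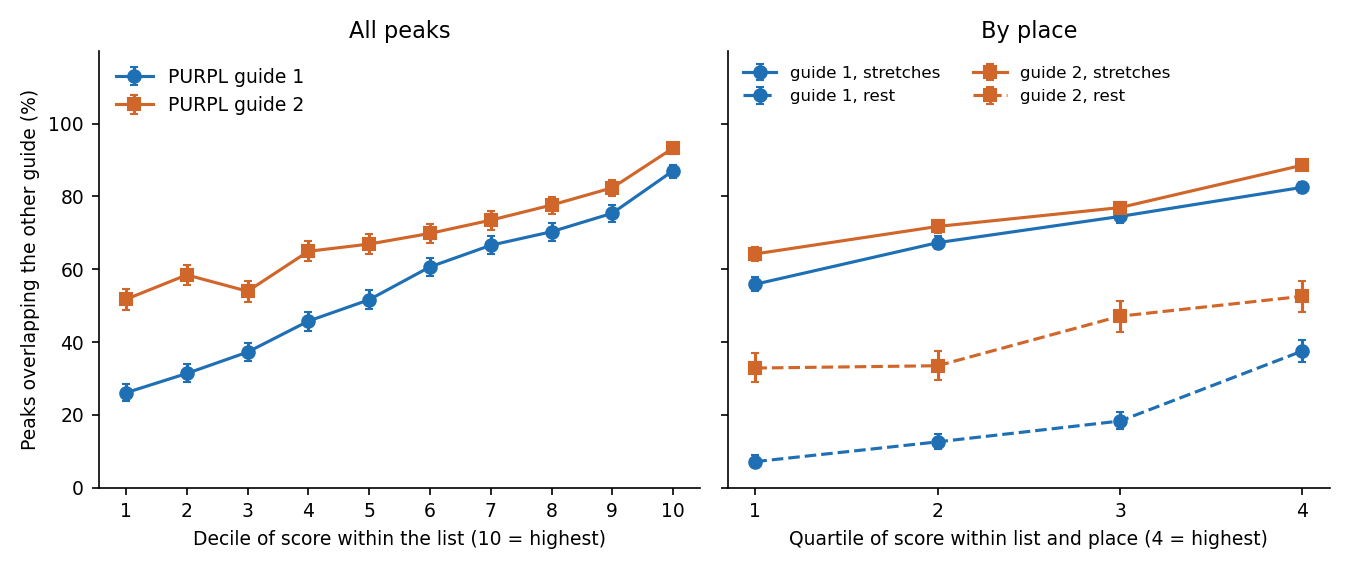
Share of peaks that overlap a peak of the other guide (vertical, %) by class of score within the list (horizontal), for all peaks in deciles (left) and for gene-free stretches (solid) and the rest (dashed) in quartiles (right); bars are 95% Wilson intervals. The guide 1 share climbs from 26.1% to 87.1% over the deciles, and outside the stretches its top quartile reaches 37.6%.

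Where both guides had a peak, the peaks were often not the same interval. The 7720 and 8023 shared peaks formed 8673 overlapping pairs, and 10.3% of the shared guide 1 peaks and 7.27% of the shared guide 2 peaks had 2 or more partners. In the 5919 pairs in which each peak had 1 partner, the edges lay a median of 155.5 bp apart, and 56.0% of the pairs covered each other by at least 50%. The guide 1 peak was the wider one in 56.9% of these pairs. Outside the stretches, in 598 such pairs, edges lay a median of 376 bp apart and guide 1 was wider in 70.4%. The order of scores within the lists had a Spearman's rho of 0.57 inside the stretches (5321 pairs) and 0.29 outside (598 pairs), given as descriptions of 1 pair of libraries.

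Unshared peaks lay beside peaks of the other guide in the stretches and far from them elsewhere. Inside the stretches 84.9% of the 2971 unshared guide 1 peaks and 86.4% of the 2337 unshared guide 2 peaks had a peak of the other guide within 5000 bp. Outside, 18.9% of the 3289 and 28.9% of the 1222 did. There the median distance to the nearest peak of the other guide was 222 kb for guide 1 and 106 kb for guide 2, distances that also depend on how many peaks the other list holds. More than 100 kb from any peak of the other guide lay 1958 guide 1 and 621 guide 2 peaks outside the stretches. Inside the stretches peaks are denser, so a neighbour within 5000 bp is likelier there. In the bin at 44000001 to 45000000 on chromosome 8, for example, guide 1 and guide 2 peaks covered 644 and 552 kb.

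PURPL itself was free of peaks with both guides. The gene (gene ID 643401, chromosome 5, 27472292 to 27496401) had 0 bases under peaks in each list. Guide 2 had 1 peak within 500 kb, of 316 bp at 27426468 to 27426783, which lies 45.5 kb before the gene and 12.8 kb from the non-coding gene LOC105374695. Guide 1 had 0 peaks within 2 Mb, and its nearest peaks lay 6645 kb before and 4845 kb after the gene. The guide 2 peak has the highest score of all guide 2 peaks that lie outside the stretches with no guide 1 peak within 20000 bp. Its score is above that of 91.5% of its list, its nearest guide 1 peak is 4914 kb away, and it has no counterpart in the guide 1 list. The flanking coding genes CDH9, a cadherin gene, and LOC124901178 had 0 covered bases with both guides.

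Isolated peaks outside the stretches had low scores, as peaks there had in general, and were narrower in both lists. Outside the stretches 2315 guide 1 peaks (57.1%) and 761 guide 2 peaks (36.4%) had no peak of the other guide within 20000 bp. Their median score rank was at percentile 20.0 and 28.2 of their lists. All peaks outside the stretches had median scores of 17 and 18, which stand at percentiles 25.7 and 28.2. The isolated peaks are part of that set, 57.1% of it for guide 1, so close medians are partly built in. Shared peaks outside the stretches had median scores of 22 and 19, and unshared ones 17 and 18. Median widths of the isolated peaks were 453 and 305 bp, against 612 and 512 bp for all peaks outside the stretches. Only 6 and 3 of the isolated peaks stood above percentile 90. The strongest of guide 1 was a peak of 238 bp on chromosome 22, at 18730477 to 18730714, between the pseudogene PPP1R26P4 and FAM230E, at percentile 99.5. The next was a peak of 264 bp at 236097123 to 236097386 on chromosome 1, 32.03 kb beyond the basement membrane gene NID1, at percentile 98.8 and 926 kb from any guide 2 peak. The third, of 561 bp, lay in the body of CHL1, a neural adhesion gene, on chromosome 3 at 261936 to 262496. With guide 2, the PURPL neighbour above was followed by peaks in DACH1, a transcription factor gene (chromosome 13, 71553061 to 71553385, percentile 91.2), and in ADGRE2, an adhesion receptor gene (chromosome 19, 14749865 to 14750171, percentile 90.9). None of these 6 peaks was wider than 561 bp.

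The strongest shared pairs lay on chromosomes 1, 16 and 18. In the stretches the first 3 were on chromosome 1, led by 125178838 to 125183860, the highest score of both lists. Outside the stretches the first 3 were at 34581389 to 34588633 and 34576264 to 34576681 on chromosome 16, where no gene is annotated, and at 106777 to 110769 on chromosome 18, over the transcribed pseudogene ROCK1P1. By the lower of its ranks, each of these 3 outside the stretches stood at percentile 99.2 or above.

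Outside the gene-free stretches, peaks on zinc finger genes were shared most often. Of the peaks in their bodies, 37.5% of 775 with guide 1 and 74.3% of 486 with guide 2 were shared. In the bodies of other coding genes 11.6% of 1242 and 25% of 572 were shared. Peaks that touched only non-coding genes (16.5% and 36.3%) and peaks outside genes (16.2% and 34.9%) lay between. The length ratio did not set zinc finger genes apart: guide 2 had 38.2% of the guide 1 length in peaks on them, 40% on other coding genes, 42.2% on non-coding genes and 45.5% outside genes. Peaks on zinc finger genes were also wider, with medians of 1120 and 858 bp against 536.5 and 404.5 bp on other coding genes.

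**Figure D3:**
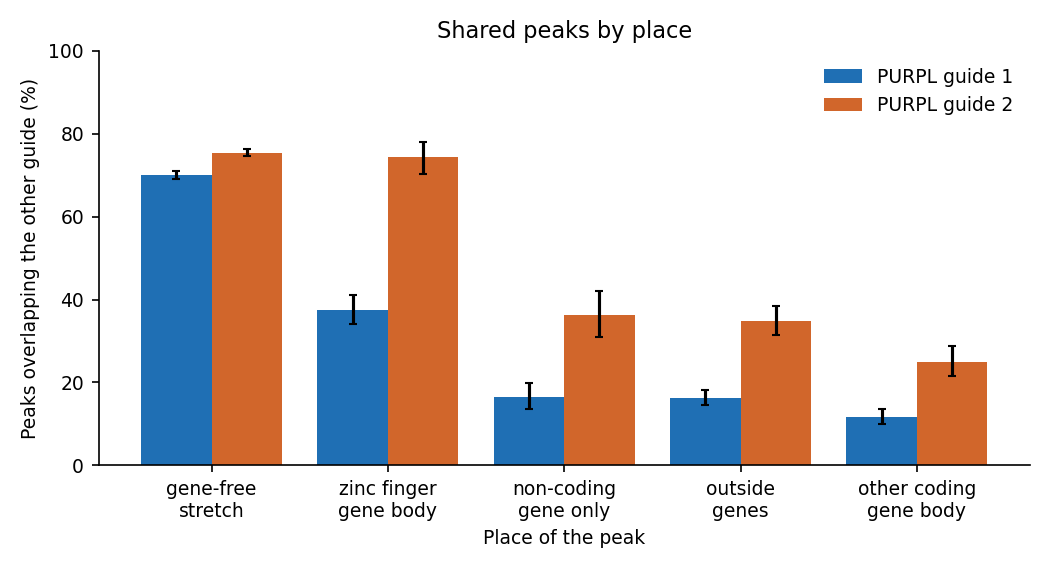
Share of peaks that overlap a peak of the other guide (vertical, %) by place of the peak (horizontal), for guide 1 and guide 2; error bars are 95% Wilson intervals for counting error. The guide 2 bars of gene-free stretches and of zinc finger gene bodies stand at 75.4% and 74.3%, and that of other coding gene bodies at 25%.

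Few coding genes held peaks, and guide 1 marked more of them. Of 19126 coding genes, 1297 had a guide 1 peak in the body (6.78%), 738 a guide 2 peak (3.86%) and 458 both (2.39%). Guide 1 alone marked 839 (4.39%) and guide 2 alone 280 (1.46%). In 144 of the 458 genes with both, the peaks of the guides had no base in common. Among the 630 genes with at least 1000 bp under peaks over both guides, the guide 1 length was at least 2 times the guide 2 length in 408 (64.8%) and the reverse held in 59 (9.37%), genes at 0 in 1 guide included. These counts rest largely on low scores: with peaks scored at or above 22, the median of both lists pooled, 126 genes had peaks of both guides, 315 of guide 1 alone and 116 of guide 2 alone. With guide 1 limited to as many peaks as guide 2, guide 1 alone marked 531.

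Zinc finger genes, taken as coding genes named ZNF or ZFP with a number, encode DNA-binding proteins, many of them repressors of transposable elements. Of 525 members, 279 were marked by guide 1 (53.1%, against 6.78% of all coding genes) and 217 by guide 2 (41.3%, against 3.86%). Both guides marked 207, guide 1 alone 72 and guide 2 alone 10. Of the 207, guide 1 covered more in 190 and guide 2 in 17. Their median guide 2 length was 42.0% of the guide 1 length, against 51.0% over all 458 coding genes with both. The 458 include the 207, and the median was 67.3% over the 251 that are not zinc finger genes. With at least 1000 bp over both guides, 167 of 251 members had at least 2 times as much with guide 1 and 6 had it with guide 2. This compares with 408 and 59 of the 630 coding genes, members included, and with 241 and 53 of 379 without them. Summed over the family, guide 2 had 39.1% of the guide 1 length, and 22.8% with peaks scored at or above 22.

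The longest stretches of zinc finger genes under both guides at once lay on chromosomes 19, 12 and 4. ZNF274 (chromosome 19, 58183061 to 58213562) had 23870 bp under 6 guide 1 peaks and 12781 bp under 8 guide 2 peaks, and 12443 bp were common. So almost all of the guide 2 coverage of this gene lay inside that of guide 1. Its neighbour ZNF544 had 28187 and 14602 bp with 12198 common. On chromosome 12, ZNF140, with 22546 and 11771 bp, ZNF84, with 19291 and 11198 bp, and ZNF605, with 20205 and 12564 bp, showed the same order. ZNF891, which overlaps ZNF140, and ZNF268 had 16936 and 9921 bp, and 16290 and 9650 bp. ZNF721 on chromosome 4 had 20583 and 12215 bp, and ZNF69 on chromosome 19 had 22016 and 13223 bp. ZNF557 was the exception among these 10, with 8552 bp under guide 1 and 9042 bp under guide 2. With peaks scored at or above 22, the order of the guides turned at ZNF544 and ZNF557, and ZNF268 had 0 bp with guide 2.

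The largest differences between the guides were also at zinc finger genes. ZNF91, whose protein represses SVA elements, had 25560 bp under guide 1 peaks and 7728 bp under guide 2 peaks. ZNF180 had 16869 and 3710 bp, ZNF606 15396 and 2968 bp, and ZNF718 13288 and 2772 bp. The readthrough gene ZNF559-ZNF177 had 19443 and 6486 bp, ZNF141 21150 and 8652 bp, and ZNF345 19362 and 8800 bp. In each of these 7 genes guide 2 had at least 4 peaks, so the gene was marked by both guides over different lengths. Much of the guide 2 coverage had low scores: with peaks scored at or above 22, ZNF91, ZNF141 and ZNF606 had 0 bp with guide 2. The guide 1 minus guide 2 length was then 1774 bp at ZNF718 and 4826 bp at ZNF559-ZNF177, against 10516 and 12957 bp with all peaks.

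Genes with guide 1 peaks and none of guide 2 were led by the same family. ZNF470 (chromosome 19, 56567468 to 56582894) had 7594 bp under 2 guide 1 peaks, one of which reached its start window, and 0 with guide 2. ZFP69B had 6508 bp, ZNF347 5787 bp, ZNF429 5745 bp over 7 peaks, ZNF317 5528 bp, ZNF528 4174 bp and ZNF665 3670 bp. IRGM, an immunity-related GTPase gene, had 5514 bp and overlaps ZNF300, which had 3983 bp. MAD1L1, a gene of the spindle checkpoint, had 3727 bp over 4 peaks. With peaks scored at or above 22, ZNF347, IRGM, ZNF300 and MAD1L1 had 0 bp with guide 1 as well, so 4 of these 10 genes lost the call.

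The 10 longest genes with guide 2 peaks alone came from other families and had less length. The receptor kinase gene EPHA3 had 2227 bp under 1 guide 2 peak, CRADD, a death domain adaptor gene, 1877 bp and the kinase gene CAMK4 1855 bp. SHLD2 (1630 bp), C1QTNF3 (1577 bp), DPH6 (1482 bp), SMG1 (1461 bp), the collagen gene COL6A6 (1454 bp), the complement gene C7 (1387 bp) and RUFY4 (1363 bp) completed the first 10. No zinc finger gene was among these 10, although 10 of the 280 are zinc finger genes, and each rested on 1 or 2 peaks. With peaks scored at or above 22, SHLD2, DPH6, SMG1, C7 and RUFY4 had 0 bp with both guides, so 5 of the 10 lost the call. Among genes marked by both guides, the largest differences in favour of guide 2 were at ZNF502 (1925 and 4588 bp), CDH13, a cadherin gene whose peaks had 0 bases in common (678 and 3011 bp), TTC34 (1838 and 3656 bp) and ZNF20 (1759 and 3201 bp). USP17L18, ZNF727, ZNF763, ZNF223, INPP4B and PGAP1 followed, with guide 1 minus guide 2 lengths of -1306 to -1023 bp. At the same score limit ZNF502, ZNF727, ZNF223, INPP4B and PGAP1 had 0 bp with both guides, and the order turned at ZNF763.

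**Figure D4:**
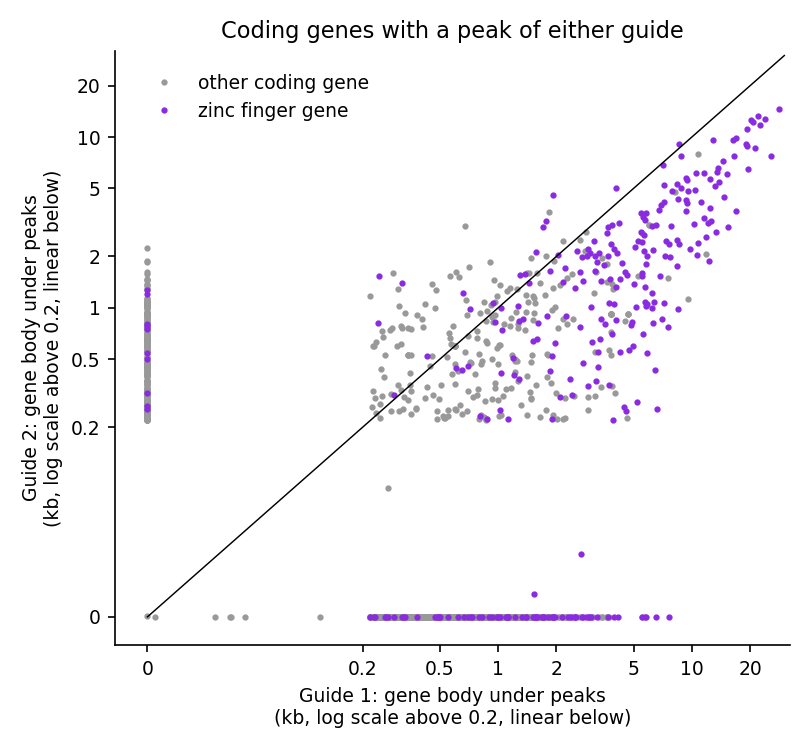
Length of the gene body under guide 1 peaks (horizontal) and guide 2 peaks (vertical) in kb, on axes that are logarithmic above 0.2 kb and linear below, for the 1577 coding genes with a peak of either guide; the line marks equal length. Zinc finger genes lie mostly below the line, with 190 of the 207 marked by both longer with guide 1, and the points on the axes are genes at 0 in 1 list.

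Both guides covered zinc finger genes in the same part of the gene. In the 181 genes with peaks of both and a known strand, the bodies were divided into 10 equal parts from start to end. Mean coverage with guide 1 was 2.81% in the first part, 18.9% in the fifth, 48.4% in the ninth and 39.9% in the last. With guide 2 it was 0.93%, 8.00%, 24.2% and 16.2%. The last 5 parts held 75.6% of the guide 1 coverage and 78.5% of that of guide 2. The guide 2 coverage was lower in each part, from 25.8% of the guide 1 value in the third to 50% in the ninth. Of 565 start windows of zinc finger genes, 6 held a guide 1 peak (1.06%, against 0.0851% of all coding windows) and 1 a guide 2 peak (0.177%, against 0.0473%).

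**Figure D5:**
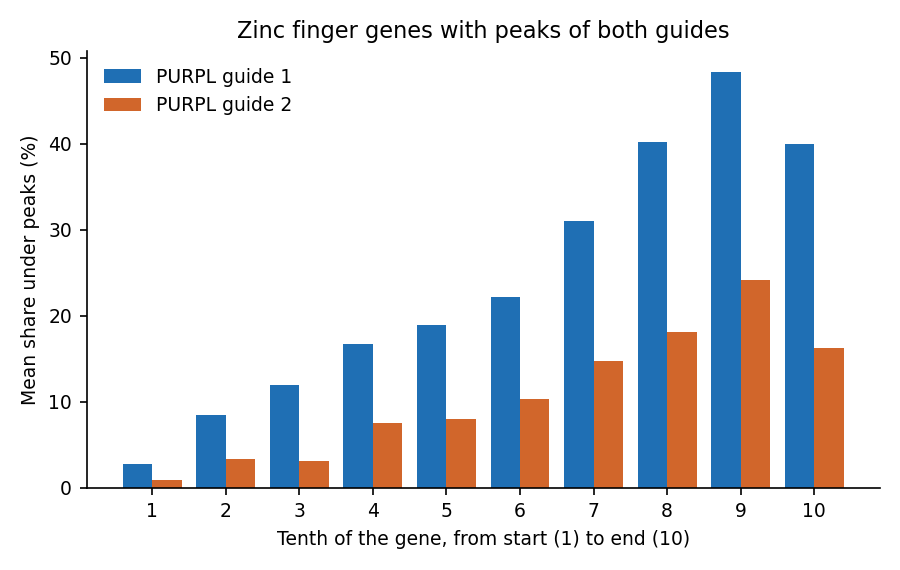
Mean share of each of 10 equal parts of the gene body under peaks (vertical, %) from gene start to gene end (horizontal) in 181 zinc finger genes with peaks of both guides. Both guides are highest in the ninth, at 48.4% and 24.2%.

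Chromosome 19 held most of this coverage. Its 255 zinc finger genes had 921 kb under guide 1 peaks and 337 kb under guide 2 peaks, 36.6% of the guide 1 length. The 270 on other chromosomes had 477 and 210 kb, or 44.1%. The bin with the largest difference outside the stretches, 36000001 to 37000000 on chromosome 19 with 15 zinc finger genes among 25 coding genes, had 168 kb with guide 1 and 80.8 kb with guide 2, and 55.3 kb were common. The next bin had 119 and 38.8 kb, and that at 52000001 to 53000000, with 24 zinc finger genes among 26, 94.0 and 30.1 kb. On chromosome 12 the zinc finger genes had 113 and 61.2 kb, 54.3% of the guide 1 length. Chromosome 20, with 1.13 and 1.22 kb, was the one chromosome with a longer guide 2 length over these genes.

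The USP17L genes, near-identical copies of a deubiquitinase gene, had more length in their bodies under guide 2 peaks, unlike most marked coding genes. Of 25 members, 12 were marked by both guides, 1 by guide 1 alone and 3 by guide 2 alone, and all 16 lie in the array on chromosome 4. Their coverage was 11.6 kb with guide 1 and 14.2 kb with guide 2, of which 8.92 kb were common. Over all coding genes 2.39% were marked by both, 4.39% by guide 1 alone and 1.46% by guide 2 alone. Guide 2 covered more in 11 of the 16 and guide 1 in 5, against 372 and 1201 coding genes. The 16 are copies in 1 array and not separate observations. USP17L17 had 1589 and 1593 bp, USP17L20 1440 and 1593 bp, and USP17L25 1401 and 1593 bp. Reads cannot be placed with certainty among such copies, so values of single members are uncertain.

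Clustered protocadherins, neural adhesion genes with overlapping bodies on chromosome 5, were marked by both guides at different places. Of 53 members, 18 held peaks of both guides and 2 of guide 1 alone, against 2.39% and 4.39% of all coding genes, over 4.97 and 1.28 kb. The 2 lists had 0 bases in common there. PCDHGA1 had 4666 bp under 5 guide 1 peaks and 921 bp under 2 guide 2 peaks, and PCDHGA2 and PCDHGA3 hold the same bases. PCDHGA4 had 3830 and 921 bp, and PCDHGA8 3830 and 526 bp with the guide 2 peak reaching its start window. PCDHGA1, PCDHGA4 and PCDHGA8 had 0 bp with guide 2 at scores at or above 22. The count of 18 genes thus rests on a few peaks that many overlapping genes share.

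Of 26 genes of H3K9 methylation, 2 held peaks of both guides and 5 of guide 1 alone. Guide 1 marked more genes throughout, with 6.78% of all coding genes against 3.86%, and 4.39% were marked by guide 1 alone. ZNF274, given above, carried most of the length. The demethylase gene KDM4B had 926 and 500 bp with 233 common. ATF7IP, the gene of a SETDB1 partner, had 1351 bp with guide 1, its relative ATF7IP2 654 bp, the methyltransferase genes EHMT1 and SETDB1 570 and 232 bp, and the demethylase gene KDM3A 410 bp, all at 0 with guide 2. Each of the 5 rested on 1 or 2 peaks, and ATF7IP had 0 bp both with peaks scored at or above 22 and with guide 1 limited to as many peaks as guide 2.

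In the p53 pathway 4 of 33 members held guide 1 peaks and 0 held guide 2 peaks. XPC, a DNA repair gene, had 1106 bp, MDM2, the ubiquitin ligase gene that limits p53, 809 bp and TNFRSF10B, which encodes a death receptor, 564 bp. The 4 members make 12.1% of the list, against 6.78% of all coding genes with a guide 1 peak and 4.39% with guide 1 peaks alone. A guide 2 peak was on 3.86% of all coding genes, so few were to be found in a list of 33. With peaks scored at or above 22, XPC and MDM2 had 0 bp with guide 1, as had XPC with guide 1 limited to as many peaks as guide 2. Imprinted genes had 2 of 27 members with guide 1 peaks, KCNQ1, a potassium channel gene, with 7541 bp, and BLCAP with 359 bp. KCNQ1 was also marked by guide 2, over 1498 bp, of which 1100 were common. At that score limit KCNQ1 had 998 and 0 bp, and BLCAP had 0 with both.

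Long neuronal genes seldom held peaks of both guides, and the same was true of marked coding genes outside the zinc finger family. Of 30 members, 2 held peaks of both guides, 8 of guide 1 alone and 4 of guide 2 alone, with 6.49 and 3.26 kb and 0 bases in common. Over all coding genes these shares were 2.39%, 4.39% and 1.46%, and in coding genes other than zinc finger genes 9.32% of the guide 1 length was common. Of the 14 members with a peak, 14.3% had both guides, against 19.5% of 1288 coding genes other than zinc finger genes. Among the 251 of these with both guides, 117 also had 0 bases in common. The members were listed as long genes, such as CNTNAP2 at 2304 kb, and a longer body has more room for a peak. Their counts are therefore not on equal terms with those over all coding genes. GPC5, a glypican gene, and the glutamate receptor gene GRIK2 had 1504 and 1185 bp with guide 1 and 0 with guide 2. The synaptic adhesion gene NRXN3 had 410 and 776 bp, and the synaptotagmin gene SYT1 862 and 222 bp. GPC5, GRIK2 and NRXN3 had 0 bp with both guides when peaks scored at or above 22 were used. KCNIP4 (636 bp), CNTNAP2 (463 bp) and DLG2 (237 bp) were among those marked by guide 2 alone.

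Few fibroblast genes held peaks, as few coding genes did: 1 of 33 with each guide (3.03%), against 6.78% and 3.86% of all coding genes. Of the 33 matrix and identity genes, LOXL2, a lysyl oxidase gene, had 238 bp with guide 1, and TIMP3, a protease inhibitor gene, 219 bp with guide 2. COL1A1, COL1A2, COL3A1, DCN, LUM, THY1, PDGFRA, PDGFRB, VIM, FN1, TWIST1, TWIST2 and PRRX1 had 0 bases with both. The keratinocyte, melanocyte, endothelial and blood markers (11, 7, 7 and 10 genes) also had 0, as had 73 ribosomal protein and 391 olfactory receptor genes, so peaks on marker genes do not tell the cell type. Among 24 germline genes, SYCP1 had 1023 bp, DMC1 287 bp and MOV10L1 233 bp with guide 1 alone, and DDX4 228 bp with guide 2 alone. Over all coding genes 4.39% and 1.46% were marked by 1 guide alone. With peaks scored at or above 22, SYCP1, DMC1 and MOV10L1 had 0 bp with both guides, as had LOXL2 and TIMP3.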

How the data were processed

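H3K9me3 ChIP-seq peak lists of BJ cells carrying 2 PURPL guides were compared, 1 library per guide. The authors deposited each peak's position and its score, which is whole, never below 10 and on a scale that is not named. MACS2 2.2.9.1, Bowtie2 2.4.2, deepTools 3.5.1 and GATK are named in the submitters' processing notes, with the builds hg38 and GRCh38.p13. Depth and calling settings: not given in the sources used here.

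Overlaps of at least 1 bp, lengths and Wilson intervals at 95% were computed with Python 3.11.15, numpy 2.4.6, pandas 2.3.3 and scipy 1.17.1 and drawn with matplotlib 3.10.9. The code was checked on random subsets of the guide 1 list and on random intervals, which covers its arithmetic only. Intervals cover counting error only. Genes and promoters came from RefSeq (GRCh38.p14, the same chromosome coordinates). RefSeq places 217 entries in unsequenced short arms, where 0 peak bases lie. Such entries can shorten gene-free stretches and can also bound them. The stretches at 409913 to 18176736 on chromosome 13 and 4557208 to 19883613 on chromosome 15 begin at such entries. Guide 1 and guide 2 peaks covered 410 and 354 kb in the former and 566 and 535 kb in the latter. How the values change without these entries was not tested. Peaks on other sequences (4.99% of each list) were left out.

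Members and the 15 gene lists were chosen with earlier results of these data known. Named genes are PURPL and its coding neighbours, the 10 longest by body coverage common to both guides, in each guide alone and by difference in each direction, and up to 3 per list. Other list members are named to account for their list, some items are not reported here, and genes at start windows were chosen after their values were seen. Named regions are the 3 highest-scoring isolated peaks of each guide and the 3 strongest pairs, inside and outside the stretches, and named bins the 5 with the largest differences each way. Alternatives changed the overlap, score limit, list size, merging, stretch length and gene window.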

Additional observations from a re-analysis of the deposited data

Results flagged for a closer look

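Peaks outside chromosomes 1 to 22 entered no comparison above. On chromosome X guide 1 had 107 peaks and guide 2 had 139, so the list with fewer peaks elsewhere had more there. On unplaced, unlocalised and patch sequences guide 1 had 551 peaks and guide 2 had 399. Each of these 4 counts comes from 1 library and was set apart because it lies outside the main measurement.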

How the results depend on the processing

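Of 46 alternative values of the main results, 10 stayed close to the value reported and 36 moved, and the cause was not tested. Close meant within 1.5 times for gene counts and inside the Wilson interval for shares of peaks. For length shares it meant equal after rounding to 1 decimal, so small changes there count as moved. Among the 10 is the guide 2 share in gene-free stretches with equal numbers, which could not move because only guide 1 was cut. The shares of guide 1 and guide 2 peaks that were shared became 37.9% and 53.4% when at least 50% of the peak had to be covered, 25.1% and 30.3% when this held for both peaks, and 77.7% and 89.8% when a peak of the other guide within 5000 bp counted. With scores at or above 22 they were 51.9% and 63.0%, and with guide 1 limited to as many peaks as guide 2 they were 60.8% and 64.3%. The guide 2 length as a share of the guide 1 length was 73.7% with the score limit, 85.6% with equal numbers and 84.3% with peaks within 5000 bp merged. In the same order, the share of guide 1 length under guide 2 peaks was 39.4%, 48.0% and 66.5%, and that of guide 2 length under guide 1 peaks 53.4%, 56.1% and 78.9%. With the score limit 126 coding genes had peaks of both guides, 315 of guide 1 alone and 116 of guide 2 alone. Within 2000 bp of a gene end the counts were 163, 164 and 56, and with equal numbers guide 1 alone marked 531. In gene-free stretches lay 85.5% and 90.3% of the peaks with the score limit, and 76.3% of the guide 1 peaks with equal numbers. Over zinc finger genes guide 2 had 22.8% of the guide 1 length with the score limit, 43.4% with equal numbers, 38.2% with 5000 bp added on each side and 37.0% near gene ends. Outside the stretches, equal numbers, an alternative chosen after seeing the data, gave shared parts of 27.4% and 32.8% and a length ratio of 62.9%. With the score limit the guide 1 minus guide 2 length reversed at ZNF544 (-4868 bp), ZNF557 (1900 bp) and ZNF763 (1016 bp). Of the 68 genes recomputed this way, another 48 moved by over 1.5 times with the score limit and 17 did not, and 27 came to a difference of 0. With equal numbers 11 moved, 57 did not and 0 reversed.

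No paired analysis was possible because each guide has 1 library, and for the same reason no replicate was left out. Sequencing depth is unknown. A region without a peak is one where none was called at this depth.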
